A study of Mus musculus with 20 samples.

Results

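The genes for potassium channels and for the hyperpolarisation-activated HCN channels were followed in cultured mouse dorsal root ganglion (DRG) neurons after electrical stimulation. They were chosen by name alone, as every gene name on the array that begins with Kcn or Hcn and continues as a channel family name, with no measured value used. This gave 99 gene names of 30222 on the array, with 148 of 39429 probes and 175 of 43020 spots. The cultures were made from NIH Swiss mouse embryos at E13.5, grown with nerve growth factor, treated with fluorodeoxyuridine against dividing cells, and used after weeks of growth. There were 5 conditions, each with 4 samples on 2 two-colour Agilent arrays that held 1 sample in Cy3 and 1 in Cy5. The conditions were unstimulated cultures (NS), 18 action potentials in every 1 min (18/1) for 2 hr or 5 hr, and 90 action potentials in every 5 min (90/5) for 2 hr or 5 hr, so that both patterns delivered the same mean rate of firing. The samples of a condition are described as biological replicates, and the methods describe pooled cultures without saying how they map to samples, so the p-values measure the spread between these samples. The labels name the cells as DRG neurons while the growth protocol speaks of spinal cords. In bulk RNA of this kind, fewer cells of a type and less RNA per cell cannot be told apart.

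Potassium channels let potassium leave the cell, which repolarises the action potential, sets the resting potential and limits repetitive firing. Pore subunits of the voltage-gated Kv families carry delayed-rectifier and fast-inactivating A-type currents, the KCNQ family carries the M-current that damps repeated firing, tandem-pore (Kcnk) channels carry leak currents, and calcium- and sodium-activated channels respond to the ions that enter during firing. Silent Kv subunits and auxiliary subunits form no channel by themselves and alter the gating or the surface level of their partners, and HCN channels carry an inward current at negative potentials that helps pace firing. Sensory neurons are known to use members of all these families.

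The arrays lay on 3 slides, and only 18/1 2hr against NS and 90/5 2hr against 18/1 5hr could be compared within a slide. Slide 1 held NS (arrays 1 and 2) and 18/1 2hr (arrays 3 and 4), slide 2 held 18/1 5hr (arrays 5 and 6) and 90/5 2hr (arrays 7 and 8), and slide 3 held 90/5 5hr (arrays 9 and 10), so elsewhere slide cannot be told from condition. Slide 2 stood apart from the others. There the median ratio of spot to background ran from 3.64 to 10.4 over the samples, against 2.27 to 2.94 on slide 1 and 2.66 to 4.91 on slide 3. Its samples had 45 to 14642 spots marked as non-uniform, against 6 to 36 and 37 to 85. Up to 60 spots of the channel genes carried that mark in a sample of slide 2 and 0 elsewhere. All 15 markers of sensory neurons passed the spot filter in all 20 samples. So did 2 of 9 markers of Schwann cells and satellite glia, 4 of 6 of fibroblasts, 1 of 5 of macrophages, 1 of 4 of endothelium, 1 of 4 of spinal motor neurons and 0 of 5 of spinal cord glia. The summed signal of the fibroblast markers was 17371 to 44626 in NS and 66761 to 76602 in 18/1 5hr, and that of the endothelial markers was 2365 to 3435 in NS and 669 to 952 in 18/1 5hr, with 1030 to 2026 in 90/5 2hr. Markers of spinal motor neurons summed to 3667 to 4681 in NS and 7318 to 9713 in 18/1 5hr, and those of spinal cord glia to 841 to 1040 and 1594 to 4913. These sums take in markers that failed the filter, and the 1 motor neuron marker that passed it was called lower at 18/1 5hr, with a log2 fold change of -1.12. The 1 endothelial marker that passed was called lower too (-1.35), and of 4 fibroblast markers 1 was called higher. Their part in the results on the channel genes was not tested.

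Values are log2 of the normalized signal, and a difference of 1 on this scale is a doubling. A probe was kept where in all 20 samples its spots reached 2 times the local background and were not marked as non-uniform. This left 34 of the 99 channel genes (34.3%), a share like the 34.3% of all gene names. Of these, 8 were Kv pore subunits of 17, 5 were KCNQ and EAG family subunits of 13, 6 were auxiliary subunits of 17, and 4 were tandem-pore channels of 14. A further 4 were calcium- or sodium-activated channels of 8, 2 were silent Kv subunits of 10, 2 were inward rectifiers of 15 and 2 were HCN channels of 4, and the last was Kcnq1ot1, a non-coding RNA antisense to Kcnq1. A second fit, which needed the same only within 1 condition (each of its 4 samples), took in 71 of the 99 genes (71.7%, against 62.0% of all gene names). The other 28 passed neither filter, and 8 of them were not well above background in any sample. These were Hcn4, Kcng3, Kcnip2, Kcnj1, Kcnj5, Kcnk5, Kcnk7 and Kcnn1. Inward rectifiers and silent subunits were the families least often measured, with 9 of 15 and 6 of 10 passing neither filter. A gene that passed only through a condition in which it was bright had to differ there, so counts from the second fit describe the genes that passed and not all 99.

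At 18/1 2hr no channel gene was called by limma. With Benjamini-Hochberg adjustment over all genes tested, 0 of 34 were called against NS, against 0.0193% of all genes (2 of 10355). At an unadjusted p under 0.05 the counts were 0 of 34 and 92 of 10355, and the methods' t-test called 1 channel gene, against 2.07% of all genes. The fold changes on the log2 scale ran from -0.61 for Kcna1 to 0.36 for Kcnip4. The second fit called 0 of 71, against 0.0213% of all genes, with 0 channel genes and 112 of all genes at an unadjusted p under 0.05. This comparison lay within slide 1, and neither fit used the pairing of its samples by replicate number.

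At 90/5 5hr no channel gene was called against NS either, with 0 of 34 in the first fit (0.0676% of all genes) and 0 of 71 in the second (0.149%). The lowest unadjusted p of limma was that of Kcnh3, an EAG-like channel of the brain, with 0.0249 and a log2 fold change of 0.66. It was the only 1 of 34 under an unadjusted 0.05, as were 382 of all genes, and the methods' t-test called 4, against 5.5% of all genes. In the second fit 3 channel genes and 605 of all genes were under it. When slide 2 was left out of the normalization, the filter and the fit, limma called 3 of 53 channel genes at 90/5 5hr, all higher, against 1.26% of all genes called higher. They were the Kv1 pore subunit Kcna5 (log2 fold change 1.11, adjusted p = 0.00159), the silent subunit Kcns3 (0.95, adjusted p = 0.0466) and Kcnh3 (0.73, adjusted p = 0.0268). Kcna5 read 8.06, 8.06, 8.04 and 8.22 in NS and 9.24, 8.98, 9.12 and 9.11 in 90/5 5hr when all slides were normalized together. The 2 conditions did not overlap, and their slides differ. With all slides in the fit this probe gave 1.02 and the other probe of Kcna5 gave -0.50, and neither was called. The summed endothelial markers also lay above NS in 90/5 5hr, at 3772 to 6060 against 2365 to 3435, although the 1 endothelial marker that passed the filter gave -0.00024 there. Their part in these values was not tested.

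Among the comparisons with NS, the one at 18/1 5hr had the highest number of channel genes called. There limma called 3 of 34 channel genes higher, where 15% of all genes were called higher, and 7 lower, where 29.5% were. Their median log2 fold change was -0.22, beside -0.23 for all genes. Among the 8 Kv pore subunits tested, 2 were called higher and 3 lower at the probe used, 1 of these 3 being Kcna6, whose probes disagreed. Of 4 tandem-pore channels 1 was called higher and 2 lower, and 1 each of 6 auxiliary subunits and of 5 KCNQ and EAG family subunits was called lower. No gene was called among the 2 HCN channels, 2 inward rectifiers, 2 silent subunits, 4 calcium- or sodium-activated channels and Kcnq1ot1. Single arrays decided some of these calls. Without array 1 (NS) the genes that lost their call included Kcnd3, Kcnk10, Kcnc1, Kcna6 and Kcnk3.

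**Figure D1:**
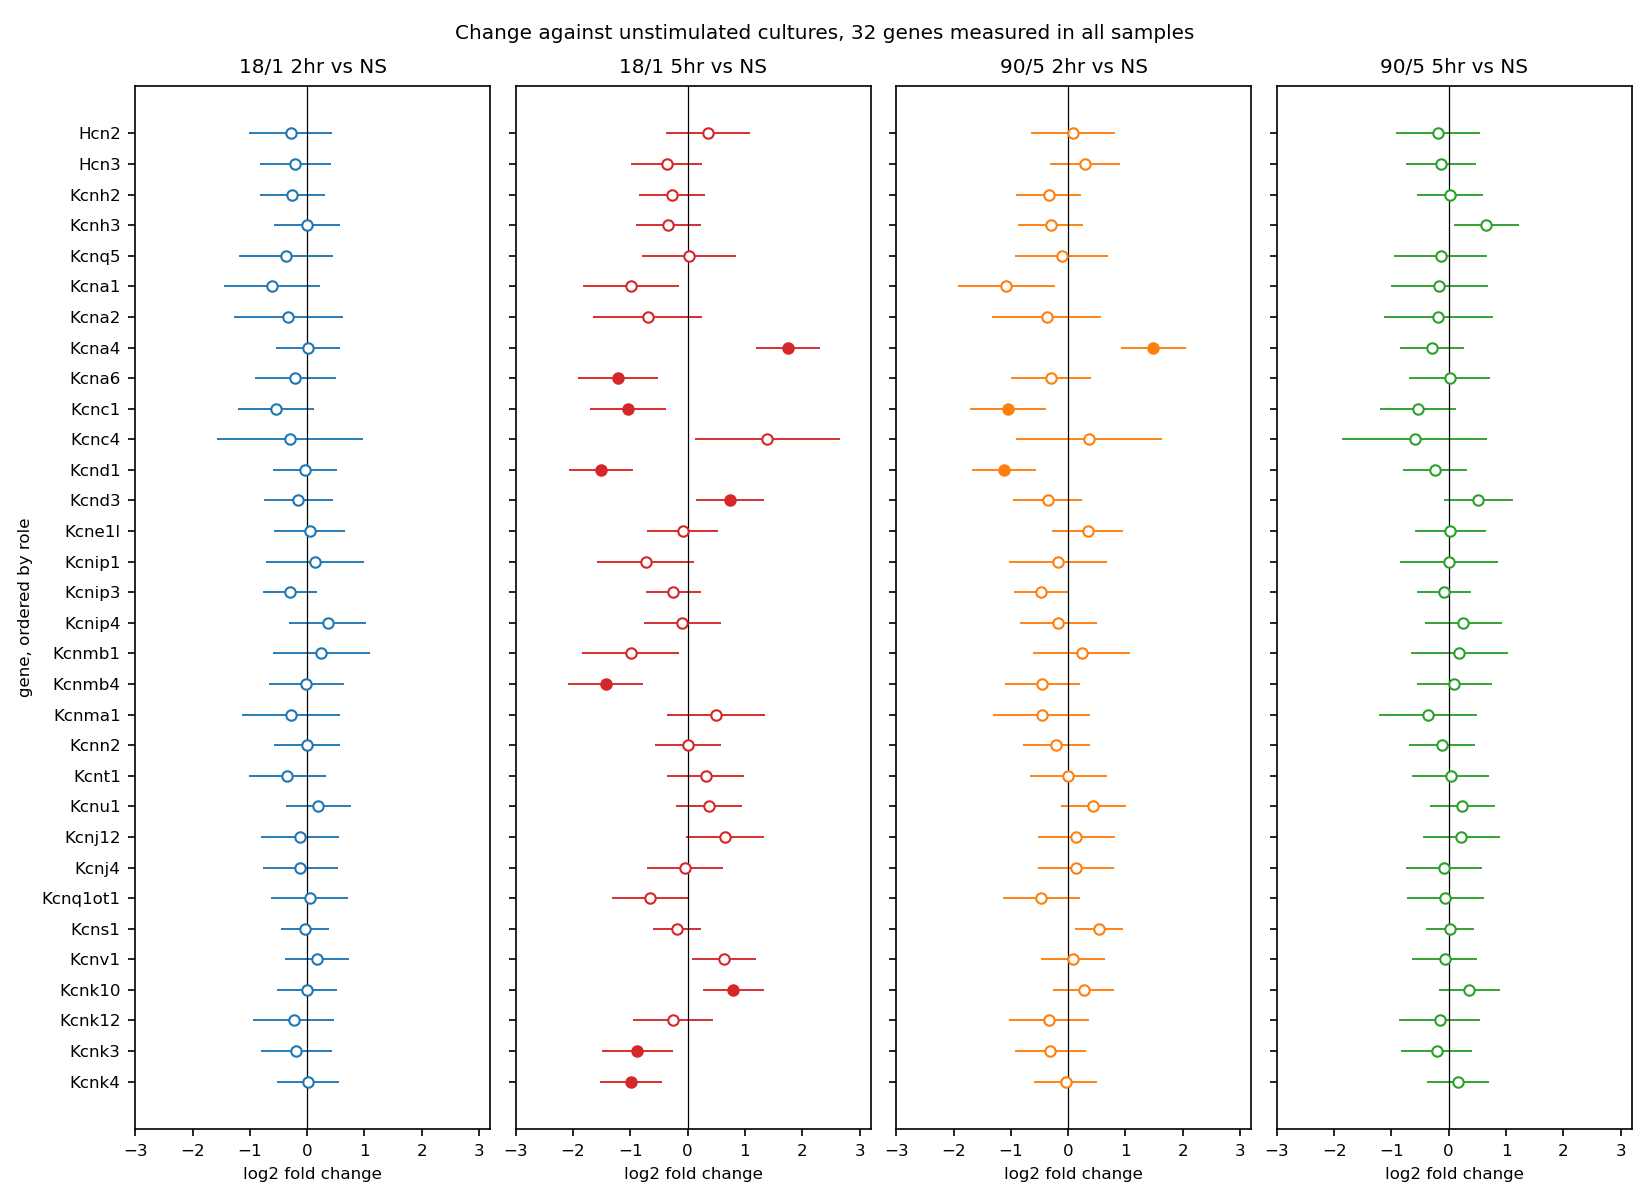
Log2 fold change of 32 of the 34 channel genes against NS (x axis) for each gene (y axis, ordered by role) in the 4 stimulated conditions, with 95% confidence intervals from limma. Filled points were called at an adjusted p under 0.05, which holds for 9 of the genes shown in the 18/1 5hr panel, 3 in the 90/5 2hr panel and 0 in the other panels.

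Kcna4, the pore subunit of a fast-inactivating A-type channel, rose 3.37-fold at 18/1 5hr. Its log2 signal was 10.87, 11.87, 10.79 and 11.65 in NS, and 13.18, 13.73, 12.18 and 13.09 in 18/1 5hr. All 4 stimulated samples lay above all 4 unstimulated ones. On each of the 10 arrays the Cy5 sample was brighter than the Cy3 sample, a difference that the colour term of the fit takes up. The log2 fold change was 1.75 (SE 0.27, adjusted p = 5.49e-05 by limma), and 27 of 28 alternatives kept the call. The probe lies at chr2:107138207-107138266 on the plus strand in mm9.

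Kcnab1 had the largest rise among the probes used, 1 for each gene, though it was measured in the second fit only. It encodes a cytoplasmic beta subunit that can confer fast inactivation on Kv1 channels. It read 9.40, 9.19, 9.80 and 9.44 in NS and 12.97, 14.09, 11.67 and 12.63 in 18/1 5hr. The conditions were well separated, with a log2 fold change of 3.38 (SE 0.56, limma adjusted p = 0.000218), a 10.4-fold difference whose size moved with single arrays, to 2.69 on the log2 scale without array 5 and 4.07 without array 6. In 18/1 2hr its 4 samples read 9.33, 9.10, 9.75 and 9.07, within or next to the NS range. Its spot was well above background in all 20 samples, at 7.38 times the local background or more, so that non-uniform marks and not dimness kept it out of the first fit.

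Kcnd3 and Kcnk10 rose less. Kcnd3, a Kv4 pore subunit of the subthreshold A-type current, read 11.73, 11.60, 11.41 and 11.53 in NS and 12.27, 12.54, 12.16 and 12.26 in 18/1 5hr, a log2 fold change of 0.74 (SE 0.29, limma adjusted p = 0.0424). Kcnk10, a lipid- and heat-sensitive leak channel of the TREK group, read 11.04, 11.05, 11.36 and 11.11 in NS and 11.98, 12.09, 11.86 and 11.80 in 18/1 5hr, a log2 fold change of 0.79 (SE 0.26, limma adjusted p = 0.016). In neither gene did the conditions overlap. With arrays centred on their medians alone, the values of Kcnd3 and Kcnk10 were 0.15 and 0.12 and neither was called. Leaving out array 1, 2 or 5 also ended both calls, with values of 0.64 to 0.84 for Kcnd3 and 0.69 to 0.89 for Kcnk10. Kcnd3 was not called in the second fit, and 14 of 28 alternatives lost its call.

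**Figure D2:**
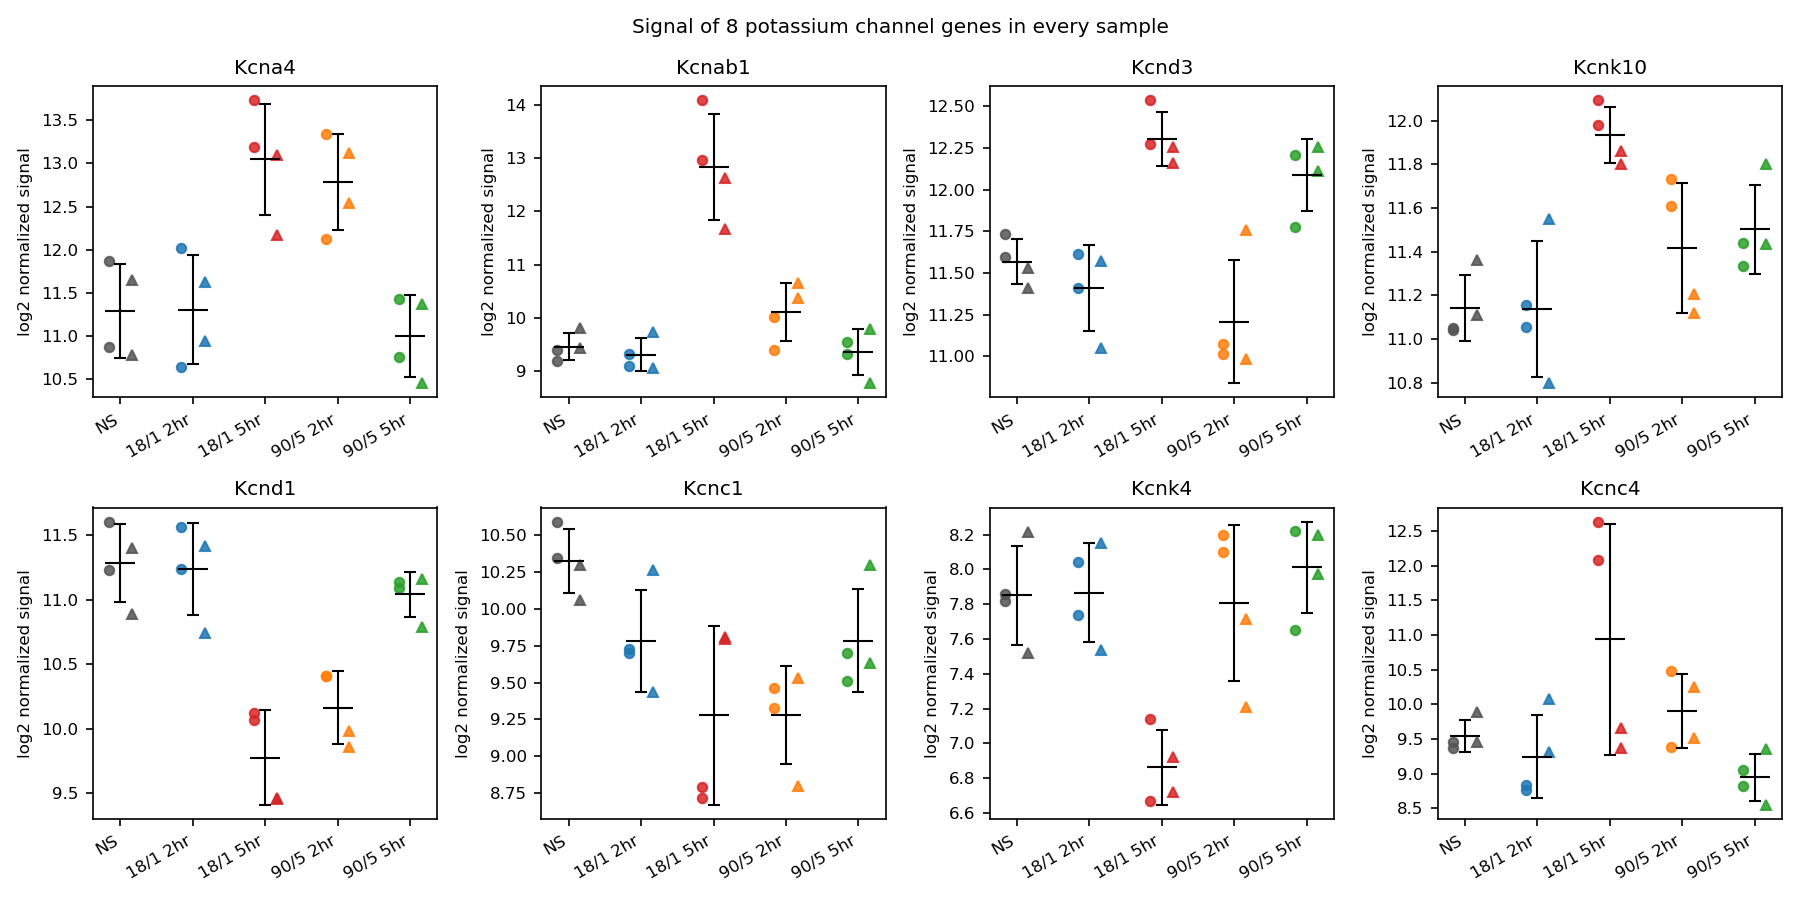
Log2 normalized signal (y axis) of 8 channel genes in each of the 20 samples by condition (x axis), with circles for the first and triangles for the second array of a condition, and bars for the mean and SD of 4 samples. Kcna4 is high in both conditions of slide 2, Kcnab1 in 18/1 5hr, Kcnd1 is low on slide 2, Kcnk4 in 18/1 5hr, and Kcnc4 is highest on array 5.

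Of the genes that fell at 18/1 5hr, Kcnd1, the other Kv4 subunit measured in all samples, had the largest fold. It read 11.23, 11.61, 10.89 and 11.40 in NS and 10.07, 10.12, 9.46 and 9.46 in 18/1 5hr, so that at the probes used the Kv4 pore subunits Kcnd1 and Kcnd3 moved in opposite directions. The log2 fold change was -1.51 (SE 0.27, limma adjusted p = 0.000185), and all 28 alternatives kept the call. The other measured probe of Kcnd1 gave -0.46 without a call. Kcnd2, the third Kv4 subunit, measured in the second fit, gave -0.28 (SE 0.36) and was not called.

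Kcnc1 and Kcna6 are pore subunits of delayed rectifiers, Kcnc1 of the Kv3 family that lets neurons fire fast. Kcnc1 read 10.59, 10.35, 10.30 and 10.06 in NS, 8.79 and 8.71 on array 5 and 9.81 and 9.80 on array 6, a log2 fold change of -1.05 (SE 0.32, limma adjusted p = 0.0113). Both arrays of 18/1 5hr lay below NS, array 5 by far more. Kcna6 read 15.36, 15.45, 15.12 and 15.42 in NS, 13.34 and 13.74 on array 5 and 14.83 and 14.59 on array 6, with -1.21 (SE 0.34, adjusted p = 0.00649) at a probe that was saturated in 1 of these 4 samples of 18/1 5hr. Neither call held when array 5 was left out, with -0.52 for Kcnc1 and -0.63 for Kcna6, or without array 1, with -0.90 and -1.15.

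The leak channels Kcnk4 (TRAAK) and Kcnk3 (acid-sensitive TASK-1) fell by 0.99 (SE 0.26) and 0.88 (SE 0.30). Kcnmb4, the neuronal beta subunit of the large-conductance calcium-activated BK channel, fell by 1.43 (SE 0.31) at the probe used, whose spot was well above background in 2 of the 4 samples of 18/1 5hr. In each of these genes 18/1 5hr lay below NS without overlap. The call of Kcnk3 was lost without array 1 (-0.91), 2 (-0.85) or 6 (-0.52). With the share of G and C bases in each probe fitted out, as described below, Kcnk4 (-0.33), Kcnk3 (-0.15) and Kcnmb4 were not called. The other probe of Kcnmb4 gave 0.50.

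Other members that are well known in sensory neurons stayed without a call at 18/1 5hr in either fit. Kcna1, a Kv1 pore subunit of axons and juxtaparanodes, gave -0.99 (SE 0.41, limma adjusted p = 0.0524), with 14.23, 14.18, 13.88 and 13.77 in NS and 12.76, 12.89, 13.06 and 13.38 in 18/1 5hr. Its samples did not overlap, and the test missed the threshold narrowly. Kcna2, its usual partner, gave -0.69 (SE 0.46). Of the M-current subunits, Kcnq3 gave 0.71 (SE 0.32) and Kcnq5 gave 0.03 (SE 0.39). Kcnh2, an ERG channel, gave -0.27 (SE 0.27). The HCN channel Hcn3 gave -0.37 (SE 0.30). For Hcn2 the probe used was saturated in 3 of 4 samples of 18/1 5hr, which leaves no exact fold, and its other probe gave -0.77 (SE 0.38, adjusted p = 0.12). The leak channels Kcnk2 (TREK-1) and Kcnk18 (TRESK) gave -1.11 (SE 0.43, adjusted p = 0.0511) and 0.46 (SE 0.41).

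Of the activated channels, Kcnma1, the BK pore, gave 0.50 (SE 0.41), Kcnn2 gave 0.01 (SE 0.28), Kcnn3 gave -0.27 (SE 0.21) and Kcnt1, a sodium-activated channel, gave 0.31 (SE 0.32). The inward rectifiers Kcnj3, Kcnj10 and Kcnj11 gave -0.31 (SE 0.22), -0.25 (SE 0.47) and -0.33 (SE 0.28). Kcnj10 is best known from glia and Kcnj11 as the pore of ATP-sensitive channels. The Kv4-associated calcium sensors Kcnip1, Kcnip3 and Kcnip4 gave -0.73 (SE 0.41), -0.25 (SE 0.23, at a probe saturated in 1 sample of 18/1 5hr) and -0.10 (SE 0.32). None of these was called, and the 95% confidence interval of each included 0.

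The second fit added genes that were too dim or too blemished on some arrays. Of 71 channel genes it called 4 higher (Kcna4, Kcnk10, Kcnab1 and Kcng2), against 13.5% of all genes, and 17 lower, against 23.3%. Beside Kcnab1 the added gene called higher was Kcng2, a silent partner of Kv2 channels, with -0.51 at its other probe and, at the probe used, 2.04 (SE 0.31, limma adjusted p = 0.00012), with 7.86, 8.24, 7.91 and 7.95 in NS and 10.40, 10.62, 9.38 and 9.71 in 18/1 5hr. The added genes that fell included Kcnb2, a Kv2 pore subunit of the delayed rectifier, with -0.95 (SE 0.19). The Kv3 subunit Kcnc2 fell by 1.01 (SE 0.28) and the Kv1 beta subunits Kcnab2 and Kcnab3 by 1.07 (SE 0.28) and 1.0 (SE 0.24), opposite to Kcnab1. Kcnb2 read 7.77, 7.43, 7.69 and 7.40 in NS and 6.85, 6.57, 6.61 and 6.45 in 18/1 5hr, and Kcnab3 read 7.81, 7.64, 7.76 and 7.73 against 6.58, 6.85, 6.75 and 6.76. These conditions did not overlap, and all 27 alternatives kept both calls. Both genes were near the floor, however, with spots well above background in 1 of the 4 samples of 18/1 5hr each. The size of their fold is therefore uncertain. The same held for Kcnk16 with 1 sample and for Kcnc2, Kcnk9, Kcnk15 and Kcnh6 with 2. Before normalization the spot to background ratio of Kcnb2 was 2.16 to 3.12 at 18/1 5hr and 1.95 to 2.76 in NS. It was 2.21 to 4.54 against 2.44 to 2.98 for Kcnab3 and 3.80 to 7.94 against 3.16 to 4.79 for Kcnab2. These ratios show no clear fall. The median ratio was higher on slide 2, and every alternative scaled the arrays, so the direction without scaling was not tested. The tandem-pore channels Kcnk9 (TASK-3), Kcnk16 and Kcnk15 fell by 0.94 (SE 0.24), 0.94 (SE 0.22) and 0.84 (SE 0.20). Kcnh6, an ERG channel, fell by 0.87 (SE 0.34) and the auxiliary subunit Kcne3 by 0.53 (SE 0.20), with limma adjusted p of 0.0491 and 0.0483. Both calls were lost without array 1, 2 or 5, and Kcnh6 gave -0.33 without array 5. Single arrays also decided the calls of Kcnab2 (lost without array 1, at -0.90), Kcnc2 (without array 2, at -0.89), Kcnk9 (without array 1 or 2, at -0.91 and -0.97) and Kcnk15 (without array 2, at -0.80). Kcnt2, a sodium-activated channel, was not well above background in any sample of 18/1 5hr and was at least 1.89-fold lower there than in NS, a call lost without array 1. Such a bound sets the brighter condition's mean against the lowest signals that were well above background on the dim arrays.

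The stretch before the start of a gene holds much of its promoter. Short motifs in it and just after the start were counted because activity-driven transcription in neurons often runs through CREB, AP-1 and EGR factors. RefSeq windows of 300 bases in GRCm38.p6, 250 of them before a start and the rest from the start on, were matched for 72 of the 99 channel genes. On both strands, the CRE TGACGTCA was found in 0 of their 97 windows and in 1.79% of all 32851 windows, its shorter element TGACG in 19.6% and 20.8%, the AP-1 motif TGANTCA in 4.12% and 7.81%, and the EGR motif GCGTGGG in 9.28% and 5.04%. The shorter element lies within the full CRE, so every CRE counts for both. Of the genes called at 18/1 5hr in either fit, leaving out Kcna6 because its probes were called in both directions, 4 called higher had a window and 10 called lower did. The shorter element was found in 0 of the 4 and in 4 of the 10, Kcnab2, Kcnc1, Kcnh6 and Kcnt2. The EGR motif was found in Kcnd3 among the first and in Kcnab2 and Kcnk15 among the second, and the AP-1 motif in Kcne3. The 250 bases before the start of 2 genes called higher and 1 called lower are shown for comparison, with motif letters in capitals.
Kcna4, chr2:107290339-107290588 (+): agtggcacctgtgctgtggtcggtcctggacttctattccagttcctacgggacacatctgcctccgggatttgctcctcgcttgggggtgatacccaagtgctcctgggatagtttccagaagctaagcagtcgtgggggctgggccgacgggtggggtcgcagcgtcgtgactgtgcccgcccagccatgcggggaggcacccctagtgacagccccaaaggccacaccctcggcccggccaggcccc
Kcnd3, chr3:105451640-105451889 (+): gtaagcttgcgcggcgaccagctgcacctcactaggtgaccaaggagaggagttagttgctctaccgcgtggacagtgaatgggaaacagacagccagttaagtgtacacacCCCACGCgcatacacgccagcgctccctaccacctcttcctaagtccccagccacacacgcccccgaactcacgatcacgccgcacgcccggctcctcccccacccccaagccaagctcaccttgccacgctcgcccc
Kcnc1, chr7:46396218-46396467 (+): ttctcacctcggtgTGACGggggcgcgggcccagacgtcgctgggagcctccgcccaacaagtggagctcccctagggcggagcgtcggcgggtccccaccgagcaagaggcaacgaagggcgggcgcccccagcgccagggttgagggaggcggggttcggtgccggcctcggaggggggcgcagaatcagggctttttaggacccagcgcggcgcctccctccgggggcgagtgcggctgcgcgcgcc
The stretch shown for Kcna4 holds none of these motifs. That of Kcnd3 holds the EGR motif starting 138 bases before the start, and that of Kcnc1 holds TGACG 236 bases before it. A match describes the letters of the window and not a site in use.

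At 90/5 2hr fewer genes were called. This comparison shares its NS samples with the one above, and both stimulated conditions lay on slide 2. Limma called 1 of 34 channel genes higher, against 3.58% of all genes, and 2 lower, against 3.39%. Kcna4 read 12.13, 13.34, 12.54 and 13.12, all above NS, with a log2 fold change of 1.49 (SE 0.27, adjusted p = 0.00182), a 2.8-fold rise. Kcnd1 read 10.41, 10.41, 9.86 and 9.98, all below NS, with -1.12 (SE 0.27, adjusted p = 0.0139), while its other measured probe gave -0.41 without a call. Kcnc1 read 9.33, 9.46, 9.53 and 8.80, with -1.05 (SE 0.32, adjusted p = 0.0499), a call that 20 of 27 alternatives lost. The call of Kcna4 was lost without array 2 (NS), and those of Kcnd1 and Kcnc1 without array 1, 2 or 8. Kcnd1 gave -0.98, -1.26 and -0.88 without array 1, 2 or 8. The log2 fold change of Kcna4 was 1.41 without array 2, and over the 27 alternatives it ran from 1.41 to 1.69. The median of the 34 genes was -0.17, beside -0.08 for all genes.

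The second fit called 5 of 71 channel genes at 90/5 2hr, against 5.06% of all genes in either direction. It added Kcnab2 at -0.99 (SE 0.28), Kcnb2 at -0.78 (SE 0.19) and Kcnk15 as lower. None of these 3 calls held without array 1, 2 or 8, and without array 8 Kcnab2 gave -0.49 and Kcnb2 -0.56. The spots of Kcnab2 and Kcnb2 were well above background in 2 and 1 of the 4 samples of 90/5 2hr. Kcnk15, a member of the acid-sensitive group that gives little current by itself, was not well above background in any 90/5 2hr sample and was at least 1.43-fold lower than in NS. Kcnab1 read 9.40, 10.02, 10.37 and 10.65 there and gave 0.65 (SE 0.56), without a call. Kcna1 gave -1.08 (SE 0.41, limma adjusted p = 0.111).

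The 2 patterns were then set against each other at the same time of stimulation, which asks whether the timing of bursts matters at the same number of action potentials. At 2 hr, 90/5 exceeded 18/1 for 1 of 34 channel genes, against 2.66% of all genes, and lay below it for 1, against 2.31%. Kcna4 was 2.78-fold higher (log2 difference 1.47, SE 0.27, limma adjusted p = 0.00211), with 10.64, 12.02, 10.95 and 11.62 in 18/1 2hr. The 90/5 2hr samples lay above all of them. Kcnd1 was lower by 1.08 (SE 0.27, adjusted p = 0.0214) at the probe used, while its other probe gave 0.07 without a call. The second fit called 3 of 71, against 3.95% of all genes, and added Kcnk15, at least 1.29-fold lower. The call of Kcnk15 was lost without array 3, 4 or 8. Of the calls of the first fit, that of Kcna4 was lost without array 4 (18/1 2hr), at 1.45. That of Kcnd1 was lost without array 3, 4 or 8, at -0.92, -1.24 and -0.83.

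Kcna4 and the probe used for Kcnd1 were called at both times, with opposite signs. Relative to 18/1 at 5 hr, 90/5 was called higher for 7 of 34 channel genes, against 29.6% of all genes, and lower for 3, against 15.8%. Of 4 fibroblast markers 3 were called lower too (median -1.19), and the 1 endothelial (1.35) and 1 motor neuron marker (1.72) tested were called higher. Of 15 sensory neuron markers 1 was called higher and 1 lower. The part of these markers in the calls was not tested. Kcna4 was 4.12-fold lower in 90/5 5hr (10.76, 11.43, 10.46 and 11.37) than in 18/1 5hr, a log2 difference of -2.04 (SE 0.27, limma adjusted p = 9.66e-06). Among the genes called higher in 90/5 5hr at the probe used were Kcnmb4 (1.53), Kcnd1 (1.27), Kcnmb1 (1.18), Kcnk4 (1.15) and Kcnh3 (1.0). The other probes of Kcnmb4 and Kcnd1 had the opposite sign, with -0.28 and -0.24, and were not called, while that of Kcnk4 gave 1.59. Kcnmb1, the BK beta subunit of smooth muscle, was the exception in that its samples overlapped between the conditions, and it was not called without array 5 (0.69) or array 9 (0.78). The probe used for Kcna6, saturated in 1 of 4 samples of 18/1 5hr, was called too, with 1.23. The call was lost without array 5 (0.64) or array 10 (1.0), and the cDNA probe of Kcna6, saturated in all 4 and described below, gave -4.01 or beyond (limma adjusted p = 9.06e-07). Lower were also Kcnc4, an A-type Kv3 subunit, and Kcnv1, a silent subunit, by 1.99 (SE 0.61) and 0.71 (SE 0.27). Kcnc4 read 12.08 and 12.64 on array 5, 9.37 and 9.66 on array 6 and 8.83, 9.06, 9.36 and 8.55 in 90/5 5hr, and without array 5 it gave -0.57 and was not called, nor was it without array 9 or 10. The call of Kcnv1 was lost without array 5, 9 or 10, at -0.53 to -0.88, and that of Kcnh3 without array 10, at 0.87. The calls lost without array 10 (90/5 5hr) were thus those of Kcna6, Kcnc4, Kcnv1 and Kcnh3.

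In the second fit 17 of 71 were higher in 90/5 5hr, against 23.9% of all genes, and 5 lower, against 14.3%. The genes it added as lower were Kcnab1 (-3.48, from -4.17 without array 6 to -2.79 without array 5), Kcng2 (-2.40, with 0.56 at its other probe) and Kcnq1 (-1.76). Kcnq1, best known from heart and ear, read 10.30 and 10.87 on array 5 but 7.64 and 7.51 on array 6, so its samples overlapped between the conditions. Without array 5 it gave -0.25, and it was not called without array 5, 9 or 10. Among those added as higher were Kcns3 (1.44), Kcnk15 (1.17), Kcnt2 (at least 1.84-fold), Kcnab3 (1.1), Kcnk1 (0.94), a leak channel of the TWIK group, and Kcnb2 (0.72). Of these, the calls of Kcns3 (1.12 and 1.08) were lost without array 5 or 10, that of Kcnk1 without array 5, 9 or 10 (0.77 to 1.11) and that of Kcnb2 without array 10 (0.72). The difference of Kcnk15 ran from 0.22 to 1.51 over 27 alternatives, 1 of which lost the call. Here too slide cannot be told from condition, since 18/1 5hr lay on slide 2 and 90/5 5hr on slide 3.

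Whether the difference between patterns changed with time was tested as an interaction. It passed the threshold for 8 of 34 channel genes, against 44.8% of all genes, so the members' share was not above the background. Among them, at the probes used, were Kcna4 (3.51, SE 0.38, limma adjusted p = 6.87e-07), Kcnd1 (-2.35, SE 0.38, adjusted p = 5.7e-05), Kcnmb4, Kcnh3, Kcnk4, Kcnc4 and Kcna6. Each value is the difference of 90/5 from 18/1 at 2 hr minus that at 5 hr, on the log2 scale. It sets both conditions of slide 2 against 1 condition each of slides 1 and 3. A further probe of each of Kcnd1, Kcnmb4 and Kcna6 gave the opposite sign. The probe used for Kcna6 was saturated in 1 sample each of 18/1 5hr and 90/5 2hr.

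Between 90/5 2hr and 18/1 5hr, which shared slide 2, limma called 4 of 34 channel genes higher in 90/5 2hr, against 10.2% of all genes, and 1 lower, against 2.76%. The genes called higher were Kcnmb1 (1.24, SE 0.41), Kcnmb4 (0.98, SE 0.31, with -0.16 at its other probe), Kcnk4 (0.94, SE 0.26) and the silent subunit Kcns1 (0.73, SE 0.20). Kcns1, a Kv2 modifier of sensory neurons, read 8.10, 8.35, 8.35 and 8.10 in 90/5 2hr and 7.49, 7.58, 7.51 and 7.41 in 18/1 5hr. Kcnd3 was lower by 1.1 (SE 0.29), with 11.01, 11.07, 11.76 and 10.99 in 90/5 2hr. Fitted by limma within slide 2 alone, the count was 0 of the channel genes and 0 of all genes, while the methods' t-test without adjustment called 9 channel genes and 16.6% of all genes. In the other comparisons that involve slide 2 this unadjusted test called 15 channel genes at 18/1 5hr (48.7% of all genes), 6 at 90/5 2hr (20.5%), and 4 and 12 for the patterns at 2 hr (16.8%) and 5 hr (45%). By limma the log2 differences within the slide lay between -1.22 and 1.08 for the same 5 genes. All 5 of these calls were lost without array 7, with 0.33 for Kcnmb4 and 0.60 for Kcnk4. Without array 5 those of Kcnmb1 (0.74), Kcnmb4, Kcnk4 and Kcnd3 were lost. The second fit called 5 of 71, against 8.88% of all genes. Among them were Kcnab1 at -2.73 (SE 0.56, from -3.42 to -2.03 over 27 alternatives), Kcng2 at -2.06 (SE 0.31, with 0.01 at its other probe) and Kcnk16 at 0.85 (SE 0.22). Kcnk16 ran from 0.49 to 1.13 over 27 alternatives, and its call was lost without array 7, at 0.79.

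Several genes had more than 1 probe, and their probes did not always agree. In the second fit 18 channel genes had several probes, and all probes of a gene had the same sign in 7 of 18 at 18/1 5hr and in 12 of 18 at 90/5 2hr. Of the 7 genes with any probe called at 18/1 5hr, 5 had a probe of the opposite sign: Kcna6, Kcnc1, Kcne1l, Kcng2 and Kcnmb4. Kcnk4, with -0.99 and -1.14, and Kcnd1, with -1.51 and -0.46, kept 1 sign there. Kcnc1 gave -1.05, -0.89 and 0.36 at its 3 probes. The probes of Kcng2, 265 bases apart, gave 2.04 and -0.51.

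**Figure D3:**
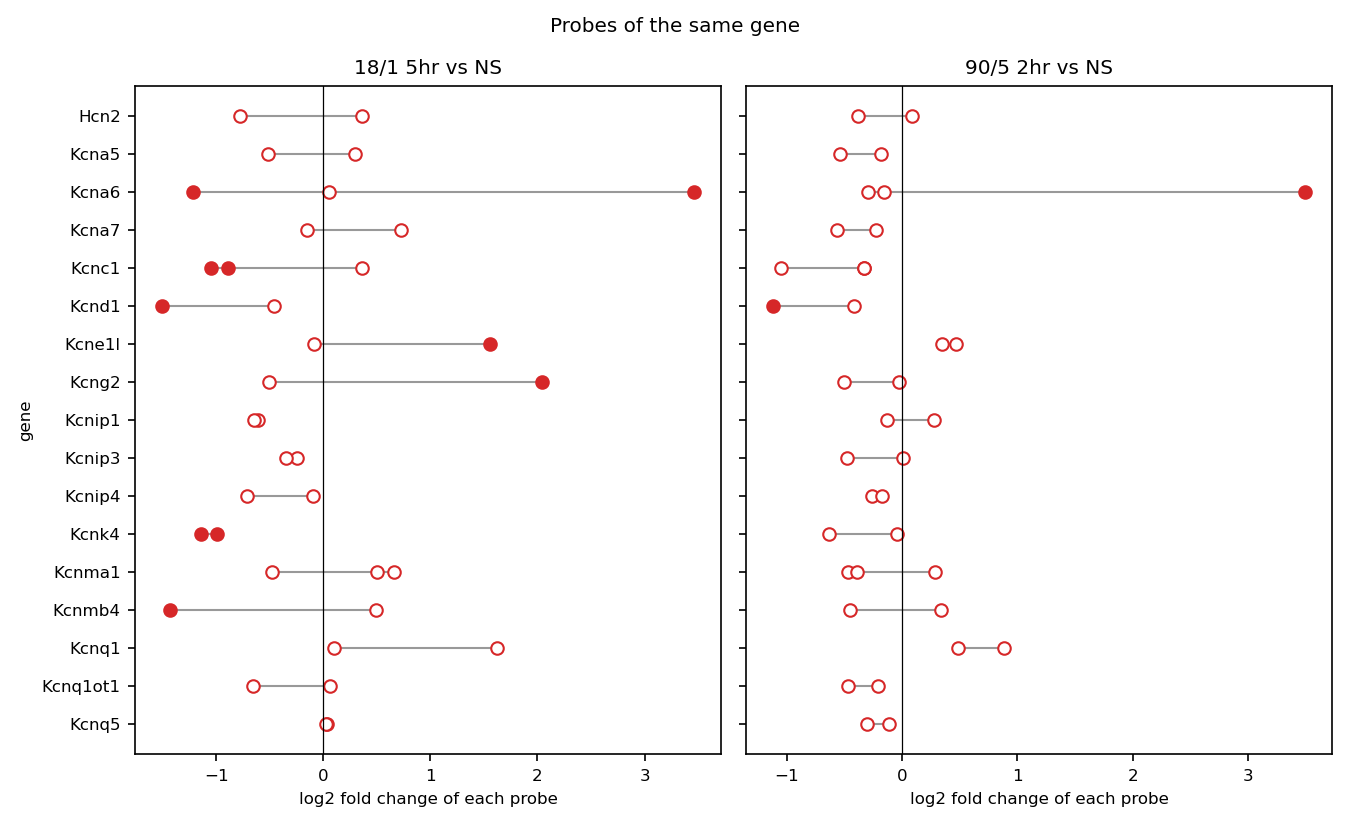
Log2 fold change against NS (x axis) of every probe of 17 of the 18 channel genes with several probes (y axis), at 18/1 5hr and at 90/5 2hr, with filled points for an adjusted p under 0.05 when every probe was tested. The probes of Kcna6 span -1.21 to 3.47 at 18/1 5hr, and those of Kcnmb4 span -1.43 to 0.50.

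Kcna6 had the widest spread. The probe used, at chr6:126658424-126658483 in mm9, gave -1.21 at 18/1 5hr and the probe at chr6:126686922-126686981 gave 0.06. A further probe, designed on a cDNA and given no genome position by the array's annotation, gave 3.47 (SE 0.36, limma adjusted p = 5.51e-06) at 18/1 5hr and 3.50 (adjusted p = 1.8e-05) at 90/5 2hr. It read 15.66 to 16.48 in the 8 samples of slide 2 and 11.78 to 12.84 in the other 12. It was marked as saturated in all 8 and in none of the others, so the rise is a lower bound. All 8 samples of slide 2 thus lay above all others. The calls given for Kcna6 are those of the probe used, and no direction is read from them for the gene.

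**Figure D4:**
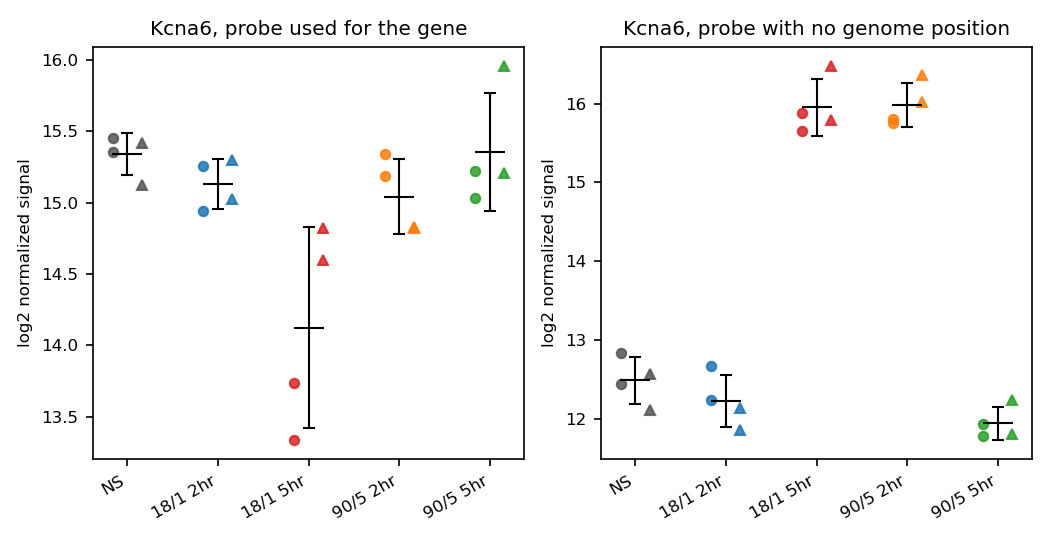
Log2 normalized signal (y axis) of 2 probes of Kcna6 in each sample by condition (x axis), marked as in the plot of 8 genes. The probe used reads lower in 18/1 5hr, most of all on array 5, while the probe without a genome position reads 15.66 to 16.48 in all samples of 18/1 5hr and 90/5 2hr and 11.78 to 12.84 in the rest.

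For Kcnmb4 the sign of the call depended on the probe. The probe used lies at chr10:115910498-115910557 on the minus strand in mm9, 55521 bases from the other, and its sequence is shown because it carries the call. It is printed in lower case with nothing marked.
Kcnmb4 probe: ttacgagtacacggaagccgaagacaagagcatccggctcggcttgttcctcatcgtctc
It gave -1.43 at 18/1 5hr, with 8.45, 8.40, 8.54 and 8.23 in NS and 7.01, 6.71, 7.20 and 6.96 in 18/1 5hr. The probe at chr10:115854977-115855036 read 11.18, 11.25, 11.37 and 11.36 in NS and 11.48, 11.42, 12.07 and 12.18, and gave 0.50 (limma adjusted p = 0.186). The first has a GC share of 55% and the second of 35%. Over the 16 channel genes whose probes differ in GC share, the probe with the higher share had the lower fold change in 9 at 18/1 5hr and in 10 at 90/5 2hr.

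This GC share, the percentage of G and C among the 60 bases of a probe, moved with the fold changes on slide 2 and, with the opposite sign, at 90/5 5hr on slide 3. Over 92 channel gene probes, Spearman's rho between GC share and log2 fold change was -0.22 at 18/1 5hr and -0.21 at 90/5 2hr, and over all 23905 probes it was -0.40 and -0.34. At 18/1 2hr it was 0.08 and -0.04, and at 90/5 5hr it was 0.21 and 0.22. These are descriptions across probes that share samples, not independent replicates. The 3 genes called higher at 18/1 5hr had probes with a median GC share of 41.7%, the 7 called lower had 53.3% and the 24 others had 40%.

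With the GC share fitted out of each sample, an alternative added after the data were seen, the calls at 18/1 5hr changed. There were 7 channel genes higher, against 17% of all genes, and 3 lower, against 19.3%. Kcna4 (1.84), Kcnk10 (1.33) and Kcnd3 (0.95) remained higher and genes that joined them included Kcnj12 (1.18), Kcnt1 (0.82) and the saturated probe of Hcn2. Kcnc1 (-1.28) and Kcnd1 (-0.71) remained lower and were joined by Kcna1 (-1.22). Kcnk4, Kcnk3, Kcnmb4 and Kcna6 were no longer called, with -0.33, -0.15, -0.63 and -0.70. In the second fit Kcnab1 (3.15), Kcng2 (2.02), Kcnb2 (-1.18), Kcnc2 (-1.1) and Kcnab3 (-1.01) kept their calls. Those lost there included Kcnab2 (-0.27), Kcnk9 (-0.41), Kcnk16 (-0.29), Kcnh6 (-0.29), Kcnk15 (-0.02) and Kcne3 (0.0014). At 90/5 2hr Kcna4 (1.5) and Kcnc1 (-1.16) kept theirs, Kcnd1 (-0.73) lost it and Kcns1 (0.83) gained one. For 90/5 against 18/1 at 5 hr there were 4 channel genes higher, against 18.6% of all genes, and 6 lower, against 16.5%, in place of 7 and 3. Kcnh3 (1.30) and Kcnmb1 (1.0) stayed higher and Kcna4 (-2.1) and Kcnc4 (-2.04) lower, while Kcnd1 (0.38), Kcnk4 (0.42), Kcnmb4 (0.65) and Kcnv1 (-0.40) were no longer called. Kcnk10 (-0.97), Kcnj12 (-0.96) and Kcnn2 (-0.67) were among the genes that became lower.

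**Figure D5:**
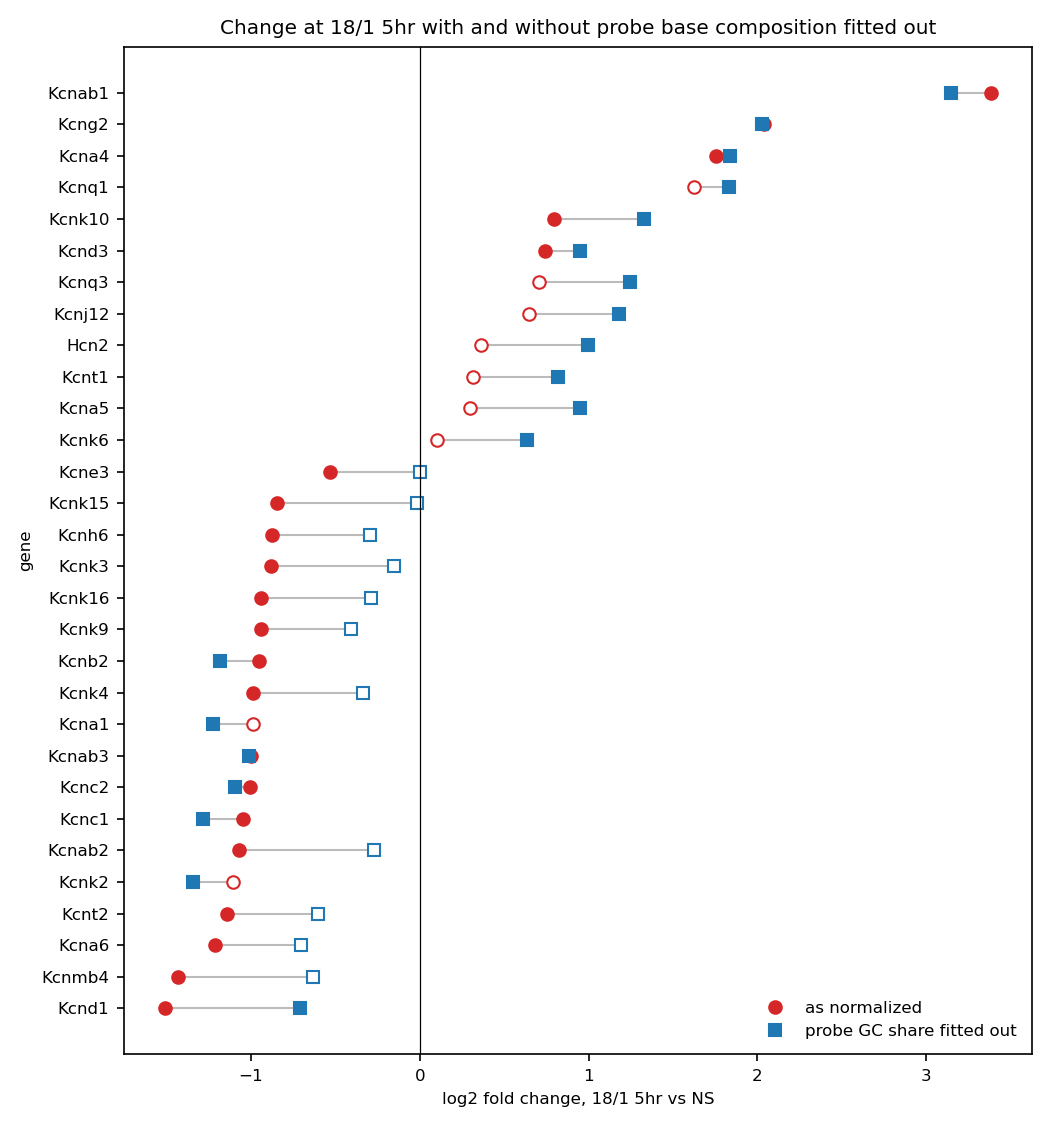
Log2 fold change at 18/1 5hr against NS (x axis) of channel genes called in either analysis (y axis), as normalized (circles) and with the GC share of the probe fitted out of each sample (squares), filled where the adjusted p was under 0.05. Kcnab1, Kcng2 and Kcna4 stay at 1.75 or above in both, while Kcnk4 and Kcnk3 move to -0.33 and -0.15.

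The scaling of the arrays moved the balance of directions as well. Centring on medians alone put the median of all genes at -0.81 at 18/1 5hr, in place of -0.23, and gave 1 channel gene higher, against 4.59% of all genes, and 12 lower, against 48%, in place of 3 and 7. For 90/5 against 18/1 at 5 hr it gave 13 higher (53.3% of all genes) and 1 lower (4.25%) in place of 7 and 3, and for 90/5 2hr against 18/1 5hr 9 higher (46.7%) and 0 lower (0.174%) in place of 4 and 1. At 90/5 2hr and for the patterns at 2 hr it kept 1 higher (3.74% and 3.16% of all genes) and left 0 lower (1.24% and 0.831%), in place of 2 and 1. Kcna4 stayed higher and Kcnd1 lower than NS at 18/1 5hr under each scaling.

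By the methods' rule a probe was turned on when it was under 2 times background in all 4 NS samples and at or above it in all 4 samples of a stimulated condition. At 18/1 5hr 28 of 148 channel gene probes (18.9%) were, against 16.4% of all probes. At 90/5 2hr 9 were (6.08%, against 4.97%), at 90/5 5hr 2 (1.35%, against 2.05%) and at 18/1 2hr 0 (0.0888% of all). None was turned off. At 18/1 5hr these included probes of Kcna3, Kcna10, Kcnd3, Kcne1, Kcne2, Kcnf1, Kcng4, Kcnh4, Kcnh7, Kcnj3, Kcnj6, Kcnj9, Kcnj11, Kcnj13, Kcnk6, Kcnma1, Kcnmb3, Kcnn3, Kcnn4, Kcnq5, Kcnrg, Kcns2, Kcnt1 and Kcnt2. Of the 28 probes, 4 were free of non-uniform marks and 7 were already well above background in all 4 NS samples by the scanner software's own test. Kcnd3, Kcnj11, Kcnma1, Kcnq5, Kcnt1 and Kcnt2 are on this list through probes other than those whose fold changes are given above. A probe could be turned on by this rule while its normalized signal was lower than in NS, as for those of Kcnn3 (-0.27) and Kcnj3 (-0.31) and the probe of Kcnma1 listed here (-0.48), none of them called. At 90/5 2hr the genes included Kcna3, Kcna10, Kcnj15, Kcnk6, Kcnma1, Kcnq5 and Kcnrg, and at 90/5 5hr they were Kcng2 and Kcnn3.

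Of 23 genes outside the channel families whose products bind, anchor or traffic these channels, 12 passed the filter in all samples. At 18/1 5hr limma called 1 of the 12 higher, against 15% of all genes, and 2 lower, against 29.5%. Calm3, 1 of the calmodulin genes and so a calcium sensor of KCNQ and calcium-activated SK channels, rose by 1.29 (SE 0.31, adjusted p = 0.00228) there and by 1.16 (SE 0.31, adjusted p = 0.0257) at 90/5 2hr. Adam22, which anchors Kv1 channels, fell by 1.4 (SE 0.41) and Snx27, a sorting protein of endosomes, by 0.92 (SE 0.30). Calm2, which encodes the same protein as Calm3, gave -0.46 (SE 0.48) and was not called.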

How the data were processed

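Total RNA of 20 samples was measured on 10 two-colour arrays. The authors deposited, per spot, the mean intensity and the local background intensity in each colour on a linear scale, not normalized, as extracted by Agilent Feature Extraction 10.7.1.1 (slide 1) or 10.7.3.1, with other marks (non-uniform, saturated, well above background), on mm9 per the file headers. Per array, 72 further columns of values were not used. Background was subtracted (normexp, offset 50), colours were normalized by loess within arrays and arrays by Aquantile, and log2 values were taken per colour using limma 3.58.1 (R 4.3.3, with the data.table package, version 1.17.8). Figures were drawn in Python 3.11.15 with matplotlib 3.10.9. Spots of a probe were averaged, and each gene name was represented by its brightest probe that passed the filter. A linear model in limma held condition and colour, with the array as a random block (correlation 0.529 in the first fit and 0.639 in the second), and p-values were adjusted by Benjamini-Hochberg over all genes tested, with a threshold of 0.05. The fit was tested on simulated data. The number of arrays limits the precision.

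The members and lists were chosen with earlier results of these data known. Genes were named by rule: the called genes with the largest changes, members well known in sensory neurons, members turned on or off, and genes whose probes disagreed. The lists were markers of sensory neurons, Schwann cells and satellite glia, fibroblasts, macrophages, endothelium, spinal motor neurons and spinal cord glia, and the channel partners. For 18/1 5hr and 90/5 2hr the labels do not settle the dye of each numbered replicate, and array plus dye names these samples. For 7 member spots the gene name differed between the array annotations, and 1 annotation was used throughout. All 99 names matched RefSeq symbols. Replicate numbers in the titles were checked for pairing on the deviations from the condition means. NS and 18/1 2hr samples of the same number correlated at 0.173 to 0.519 and count as paired, while those of NS and 90/5 5hr correlated at -0.543 to 0.394 and do not. The main fits held no term for this pairing. Values of some genes are counted in the totals and not reported here by name. Alternatives covered background, scaling, filters, saturated probes, the colour and array terms, leaving out samples, arrays or slide 2, and the methods' t-test. The last was a t-test with unequal variances on linear values, at p under 0.05. It also needed a fold above 1.4 and above a limit set from the pooled coefficient of variation. It used the normalization given here, without the methods' correction over spots of the same transcript. Alternatives chosen after seeing the data were the filter without non-uniform marks, array 5 left out throughout and the GC share of the probes.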

Additional observations from a re-analysis of the deposited data

Results flagged for a closer look

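Of 145 sets of 4 samples, from 29 genes in 5 conditions, 7 held a sample whose gap to its nearest neighbour was above Dixon's 95% critical value, and chance alone gives about 1 in 20. Replicate 3 of 90/5 5hr gave 2 of these. It read 9.10 for Kcnh3 (the others 8.48 to 8.53) and 11.71 for Kcnv1 (12.44 to 12.53). Replicate 1 of NS read 11.84 for Kcnk1 (11.22 to 11.32), and replicate 1 of 18/1 2hr read 11.87 (11.21 to 11.31). For Kcnd3, the Cy3 sample of array 8 in 90/5 2hr read 11.76 (10.99 to 11.07). For Kcne3, replicate 3 of NS read 7.64 (7.70 to 7.71) and the Cy3 sample of array 5 in 18/1 5hr read 6.92 (7.22 to 7.26).

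The difference between the patterns changed with time, by limma's interaction term, for 8 of 34 channel genes, against 44.8% of all genes, and 7 of the 8 are given here. At the probes used, the log2 difference at 2 hr minus that at 5 hr was 3.51 for Kcna4 and 2.65 for Kcnc4. It was -2.35 for Kcnd1, -1.97 for Kcnmb4, -1.32 for Kcna6, -1.30 for Kcnh3 and -1.21 for Kcnk4. Other probes turned the sign, with 0.07 at 2 hr and -0.24 at 5 hr for Kcnd1 and 0.58 and -0.28 for Kcnmb4. So did the cDNA probe of Kcna6, saturated on slide 2 (3.76 and -4.01), but not that of Kcnk4 (-0.54 and 1.59). The probe used for Kcna6 was saturated in 1 sample each of 18/1 5hr and 90/5 2hr. Without array 5 Kcnc4 gave -0.57 at 5 hr, in place of -1.99. The slides cannot be told apart from the conditions in these differences.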

How the results depend on the processing

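Over 60 gene and comparison pairs called in either fit, from 29 genes, 1643 alternatives were computed: 1320 kept direction and call, 313 kept the direction and lost the call, and 10 reversed. Kcnmb4 reversed wherever its brighter probe was taken (second fit, no spot filter, no non-uniform marks), to 0.50 at 18/1 5hr, -0.28 for the patterns at 5 hr and -0.16 for 90/5 2hr against 18/1 5hr. With the GC share fitted out, Kcne3 at 18/1 5hr became 0.0014. Counts of channel genes called follow, with the share of all genes called under the same setting except where 1 sample or array was left out. At 18/1 2hr (0, 0.0193%) the methods' t-test gave 1 (2.07%). At 18/1 5hr (10 of 34, 44.4%) the second fit gave 21 of 71 (36.8%), no filter 21 of 99 (25.7%) and no array block 17 (59.2%). At 90/5 2hr (3, 6.97%) median centring gave 1 (4.97%), no colour term 1 (6.91%), the second fit 5 (5.06%), no array block 7 (22.2%) and the methods' t-test 6 (20.5%), or 0 (0.599%) after adjustment. At 90/5 5hr (0, 0.0676%) leaving out slide 2 gave 3 of 53 (3.07%) and the methods' t-test 4 (5.5%). For the patterns at 2 hr (2, 4.96%) median centring gave 1 (3.99%), no colour term 1 (4.97%), only the conditions compared 1 (3.44%), no array block 4 (17.6%) and the methods' t-test 4 (16.8%), or 0 (0%) after adjustment. For the patterns at 5 hr (10, 45.4%) the second fit gave 22 (38.2%), no filter 24 (27.2%), no array block 16 (59.9%), only the conditions compared 6 (33.3%) and the adjusted methods' t-test 5 (28.5%). For 90/5 2hr against 18/1 5hr (5, 12.9%) median centring gave 9 (46.9%), no filter 8 of 99 (6.24%), no array block 10 (33%), no non-uniform marks 3 of 50 (10.6%), array 5 left out throughout 1 of 40 (4.37%), the GC share 2 (8.18%), the fit within the slide or of only these conditions 0 (0%), and the methods' t-test 9 (16.6%), or 0 (0%) after adjustment. Leaving out 1 sample or array gave 0 to 0 at 18/1 2hr and at 90/5 5hr, 4 to 17 at 18/1 5hr, 0 to 5 at 90/5 2hr, 0 to 4 and 6 to 16 for the patterns at 2 hr and 5 hr, and 0 to 10 for 90/5 2hr against 18/1 5hr. The share of all genes called is not given for these ranges, so they do not show whether all genes moved alike. The cause was not tested. A replicate block on NS, 18/1 2hr and 90/5 5hr changed no call at 18/1 2hr (0, 0.0676%). This block gave 1 (3.47%) at 90/5 5hr, where the numbers do not pair the samples. Its replicate terms were shared by the conditions, and a paired test of NS and 18/1 2hr alone was not run. Signals near background limit what small changes can be seen.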
